A study of Mus musculus with 6 samples.

Results

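The 10 genes described here encode the ligands, receptors, SMAD proteins and feedback inhibitors of transforming growth factor beta (TGF-beta) signalling: Tgfb1, Tgfb2, Tgfb3, Tgfbr1, Tgfbr2, Tgfbr3, Smad2, Smad3, Smad7 and Skil. They were picked by symbol from a table of 24091 genes, all 10 were present, and all 10 had enough counts to be among the 13413 genes tested. The table holds RNA-seq counts of mouse hematopoietic stem cells, the rare marrow cells that renew all blood lineages, sorted as lineage-, Sca-1+, c-Kit+, CD150+ and CD48-. Both groups are labelled wt, and the labels name no strain, allele or treatment. The 3 young libraries (young 4 to young 6) came from mice of 2 months and the 3 aged libraries (aged 1 to aged 3) from mice of 20 months. The design text says that young samples were pooled from 30 mice and aged samples from 4, without saying whether for each library or together. The p-values therefore reflect how libraries of pooled cells varied. If the libraries of an age came from the same pool, all of that variation within the group is technical. Otherwise some of it may be. The series title places the study in work on miR-126 and vessels of the ageing marrow.

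TGF-beta ligands are secreted in a latent form, and once released they bind the type II receptor, which activates the type I receptor. The type I receptor phosphorylates SMAD2 and SMAD3, which join SMAD4 in the nucleus and regulate target genes. Among these targets are the inhibitors Smad7 and Skil, which act back on the pathway. In the marrow, TGF-beta is known as a signal that keeps stem cells quiescent.

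Totals ran from 16452829 to 21918658 counts per library, and 3 counts corresponded to 0.132 to 0.239 CPM, the count scaled to library size with factors from the trimmed mean of M-values (TMM). Young 4 stood apart, with a TMM factor of 0.765 against 1.041 to 1.077 in the other libraries. Across the 13413 genes, which are not independent replicates, its log2 CPM correlated with those of young 5 and young 6 at 0.951 and 0.948, against 0.989 between young 5 and young 6. Aged 2 stood apart in another way, with 20918 genes detected, where the others had 16084 to 17057. All 8 stem cell markers checked were detected, among them Kit at 862 to 1033 CPM in aged libraries and 320 to 868 CPM in young ones. Of these markers 4 rose (Ly6a, Procr, Mecom and Fgd5) and none fell, and their summed level was 2547 to 3150 CPM in aged against 1182 to 2217 CPM in young libraries. Cd48, the marker excluded by the gate, fell (adjusted p = 0.0345 by edgeR), from 8.59 to 14.5 CPM in young libraries to 0.511 to 2.54 CPM in aged ones. The part of these markers in the values that follow was not tested.

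With edgeR's quasi-likelihood test and Benjamini-Hochberg adjustment, 0 of the 10 genes reached an adjusted p under 0.05, against 5.76% of all tested genes (4.26% higher and 1.50% lower in aged cells). At an unadjusted p under 0.05, 1 gene was higher (Tgfb3) and 1 was lower (Tgfb1) in aged cells, and 25.1% of all genes reached that level. DESeq2 called these same 2 genes, against 16.3% of all genes, limma-voom called 0, against 6.09%, and limma-voom with quality weights called these and Smad7, against 30.5% of all genes. The groups were apart, with no overlap of single libraries, for 5 of the 10 genes and for 36.6% of all tested genes (19.0% higher and 17.6% lower): Tgfb3, Smad3 and Smad7 were higher and Tgfb1 and Smad2 lower in every aged library. The median log2 fold change of the 10 genes was 0.11 and that of all genes 0.04, and the median size regardless of sign was 0.53 against 0.40.

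**Figure D1:**
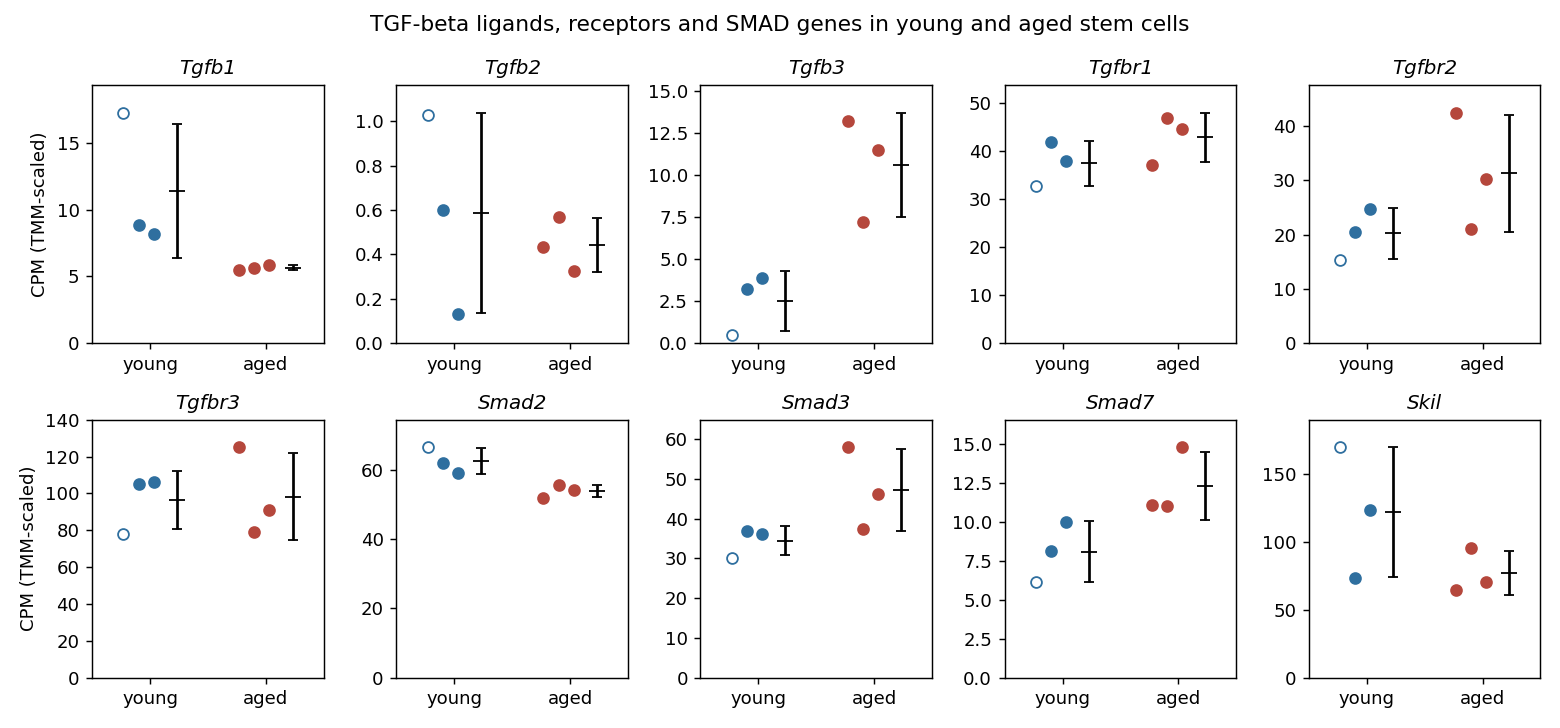
Level of each of the 10 genes in CPM (TMM-scaled; vertical axes start at 0 and differ between panels) in young and aged libraries. Each point is 1 library, the open point is young 4, and the bar gives the mean and SD of 3 libraries. Aged and young points do not overlap for Tgfb1, Tgfb3, Smad2, Smad3 and Smad7.

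Of the 10 genes, the ligand genes Tgfb3 and Tgfb1 had the largest estimates, in opposite directions. Tgfb1, which encodes the main TGF-beta of blood cells (mm10 chr7:25687002-25705077, plus strand), stood at 5.47, 5.62 and 5.85 CPM in aged 1, 2 and 3 and at 17.3, 8.87 and 8.20 CPM in young 4, 5 and 6. The aged libraries lay close together and below every young library, and young 4 was the highest by far. The means were 5.65 ± 0.193 and 11.4 ± 5.05 CPM (SD, n = 3 each), and the log2 fold change, aged minus young, was -1.01 ± 0.33 SE (95% interval -1.78 to -0.24, adjusted p = 0.118 by edgeR). Without young 4 the estimate was -0.62 (adjusted p = 0.106 by edgeR). DESeq2 put it past the threshold (adjusted p = 0.0293), as did limma-voom with quality weights (adjusted p = 0.032).

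Tgfb3, the ligand isoform on chromosome 12 (chr12:86056743-86079041, minus strand), went the other way. It stood at 13.2, 7.17 and 11.5 CPM in aged 1, 2 and 3 and at 0.477, 3.19 and 3.86 CPM in young 4, 5 and 6. All aged libraries lay above all young ones, and the lowest value, of young 4, rested on 6 counts against 64 and 88 in young 5 and 6. The means were 10.6 ± 3.10 and 2.51 ± 1.79 CPM, and the log2 fold change was 2.04 ± 0.62 SE (95% interval 0.58 to 3.50, adjusted p = 0.101 by edgeR), or 4.11-fold. Without young 4 the spread within the young group was smaller, and the gene passed the test at an estimate of 1.56 (adjusted p = 0.0396 by edgeR, where 7.47% of genes were called). It also passed with both aged 2 and young 4 left out (1.77, adjusted p = 0.0367 by edgeR, where 4.81% of genes were called), by DESeq2 (adjusted p = 0.0109) and by limma-voom with quality weights (adjusted p = 0.00513). Tgfb3 overlaps Ttll5 on the opposite strand over 5151 bases, which hold 1348 of its 3383 exon bases in GENCODE M21, although no exon base is shared. The library kit does not mark strand, so reads from unspliced Ttll5 RNA there cannot be told from Tgfb3 reads. Ttll5 itself averaged 19.8 CPM in the aged and 17.3 CPM in the young libraries. Gm37804 and Gm48008 also overlap Tgfb3 on the opposite strand in GENCODE M21, and their part in the Tgfb3 counts was not tested.

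Tgfb2 (chr1:186623186-186705992, minus strand), the third isoform, was near the detection limit. Its counts were 9, 11 and 7 in aged 1, 2 and 3 and 13, 12 and 3 in young 4, 5 and 6, or 0.325 to 0.568 CPM in the aged and 0.132 to 1.03 CPM in the young libraries. In young 6 the 3 counts gave 0.132 CPM with an exact Poisson interval of 0.0271 to 0.384 CPM, which covers counting error only. The groups overlapped, and the log2 fold change of -0.32 ± 0.71 SE (95% interval -1.99 to 1.34, adjusted p = 0.788 by edgeR) does not settle a direction at this depth. It was 0.27 without young 4 and -0.86 without young 6. An antisense gene and a small nucleolar RNA gene lie opposite Tgfb2 in GENCODE M21, and their part in the Tgfb2 counts was not tested.

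In the make-up of the ligand RNA the aged and young libraries did not overlap. Divided by length in kb, Tgfb1 made up 38.7%, 53.6% and 43.8% of the summed ligand RNA in aged 1, 2 and 3, and 95.7%, 79.3% and 76.4% in young 4, 5 and 6. Tgfb3 took 59.9%, 43.9% and 55.1% in the aged libraries and 1.70%, 18.3% and 23.1% in the young ones. Every aged library thus had a lower Tgfb1 share than every young library, and Tgfb3 was the more abundant ligand in aged 1 and aged 3. The share of Tgfb1 averaged 45.4% ± 7.57 in aged and 83.8% ± 10.4 in young libraries. The summed level itself overlapped between the groups, at 5.84 ± 0.881 CPM per kb in aged and 6.14 ± 1.88 CPM per kb in young libraries. The shares, sums and ratios here and further on were chosen after the gene values had been seen, and are given as descriptions only. The share also follows from the Tgfb1 and Tgfb3 values above. An exact permutation test gave p = 0.1 for the Tgfb1 share, the smallest value possible with so few libraries, so it cannot decide. In sorted bulk samples, fewer cells expressing a gene and less RNA per cell cannot be told apart.

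**Figure D2:**
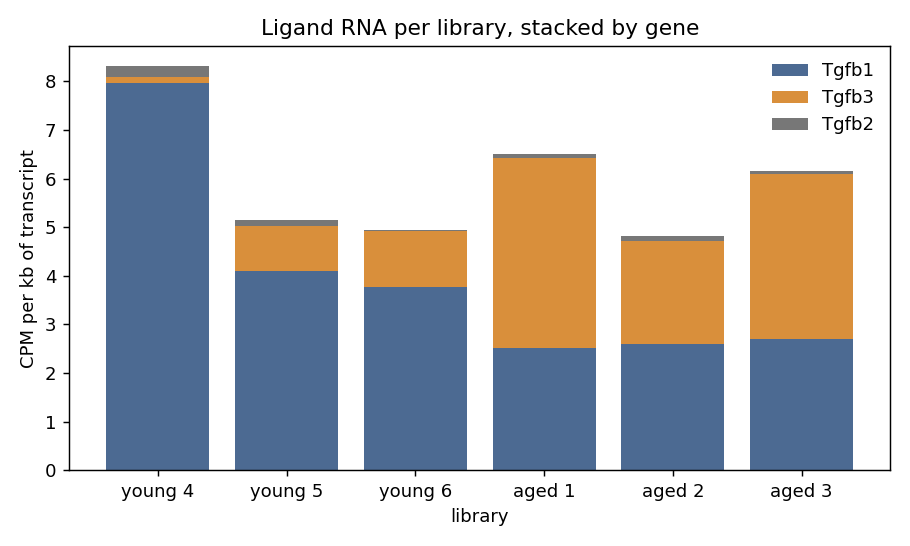
Level of the ligand genes in each library, in CPM per kb of transcript, stacked by gene. Tgfb1 fills 76.4% to 95.7% of the bar in the young libraries and 38.7% to 53.6% in the aged ones, while the bar heights of the groups overlap.

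The estimates of the receptor genes lay between 0.03 and 0.63. Tgfbr1, which encodes the type I receptor kinase (chr4:47353222-47414924, plus strand), stood at 37.2, 47.0 and 44.6 CPM in aged 1, 2 and 3 and at 32.7, 42.0 and 38.0 CPM in young 4, 5 and 6. The groups overlapped, and the log2 fold change of 0.19 ± 0.18 SE had a 95% interval of -0.22 to 0.61 (adjusted p = 0.501 by edgeR), which leaves out a 2-fold difference in either direction. Tgfbr2, the ligand-binding type II receptor gene (chr9:116087695-116175363, minus strand), stood at 42.5, 21.1 and 30.2 CPM in the aged and 15.3, 20.4 and 24.8 CPM in the young libraries. Aged 1 was highest and aged 2 lay inside the young range, with a log2 fold change of 0.63 ± 0.31 SE (95% interval -0.09 to 1.35, adjusted p = 0.245 by edgeR).

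Tgfbr3, also called betaglycan, is a co-receptor that presents ligand to the type II receptor (chr5:107106570-107289595, minus strand). It was the most abundant of the 10 genes per length, at 16.2 ± 3.88 CPM per kb in aged and 15.8 ± 2.59 CPM per kb in young libraries. In CPM it stood at 125, 79.3 and 90.8 in aged 1, 2 and 3 and at 78.2, 105 and 106 in young 4, 5 and 6, so the highest and the next lowest value both came from aged libraries. The log2 fold change was 0.03 ± 0.22 SE (95% interval -0.50 to 0.56, adjusted p = 0.945 by edgeR), and its sign changed under 7 of 16 alternatives. In GENCODE M21, Gm43422, Gm43423 and Gm42900 overlap Tgfbr3 on the same strand and the pseudogene Gm8145 on the opposite strand. Their part in the Tgfbr3 counts was not tested. Per length, Tgfbr3 RNA was 2.30, 2.96 and 2.36 times that of Tgfbr2 in aged 1, 2 and 3 and 4.02, 4.05 and 3.35 times in young 4, 5 and 6, which did not overlap. The ratio of Tgfbr1 to Tgfbr2 did overlap, at 0.695, 1.77 and 1.18 in aged 1, 2 and 3 and 1.7, 1.64 and 1.22 in young 4, 5 and 6.

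Of the receptor-activated SMAD genes, Smad2 (chr18:76241701-76311747, plus strand) varied least. It stood at 51.8, 55.5 and 54.0 CPM in aged 1, 2 and 3 and at 66.4, 61.8 and 59.0 CPM in young 4, 5 and 6. Every aged value lay below every young value, but by little: the log2 fold change was -0.21 ± 0.14 SE (95% interval -0.55 to 0.12, adjusted p = 0.365 by edgeR), an interval that excludes a 2-fold difference. Smad3 (chr9:63646767-63757994, minus strand) stood at 57.9, 37.4 and 46.1 CPM in the aged and 30.2, 36.8 and 36.1 CPM in the young libraries. The groups were apart by a narrow gap, between aged 2 and young 5, and the log2 fold change was 0.46 ± 0.21 SE (95% interval -0.03 to 0.94, adjusted p = 0.22 by edgeR). Smad3 gave 0.08 once the trend of counts with GC content and length had been taken out of each library. The ratio of Smad3 to Smad2 RNA per length was 2.01, 1.21 and 1.54 in aged 1, 2 and 3 and 0.818, 1.07 and 1.1 in young 4, 5 and 6, with no overlap, as follows from each gene's own values.

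The feedback inhibitor genes leaned in opposite directions. Smad7, which encodes the inhibitory SMAD that blocks the type I receptor (chr18:75367365-75395934, plus strand), stood at 11.1, 11 and 14.8 CPM in aged 1, 2 and 3 and at 6.12, 8.17 and 9.99 CPM in young 4, 5 and 6. All aged values lay above all young ones, and the log2 fold change was 0.60 ± 0.26 SE (95% interval -0.01 to 1.21, adjusted p = 0.207 by edgeR). Limma-voom with quality weights called it (0.56, adjusted p = 0.048), while the estimate was 0.15 with the GC and length trend removed. Skil, which encodes SnoN, a corepressor bound to SMAD complexes (chr3:31095058-31122923, plus strand), stood at 64.8, 95.6 and 70.8 CPM in the aged and 170, 73.8 and 124 CPM in the young libraries. Young 4 was highest and young 5 lay within the aged range, with a log2 fold change of -0.67 ± 0.32 SE (95% interval -1.41 to 0.08, adjusted p = 0.236 by edgeR). Without young 4 both estimates were smaller, at -0.38 for Skil (adjusted p = 0.404 by edgeR) and 0.42 for Smad7 (adjusted p = 0.294 by edgeR). Per length, Skil RNA was 2.59, 3.83 and 2.11 times that of Smad7 in aged 1, 2 and 3 and 12.3, 4.00 and 5.47 times in young 4, 5 and 6. The groups did not overlap in this ratio, although aged 2 came close to young 5.

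**Figure D3:**
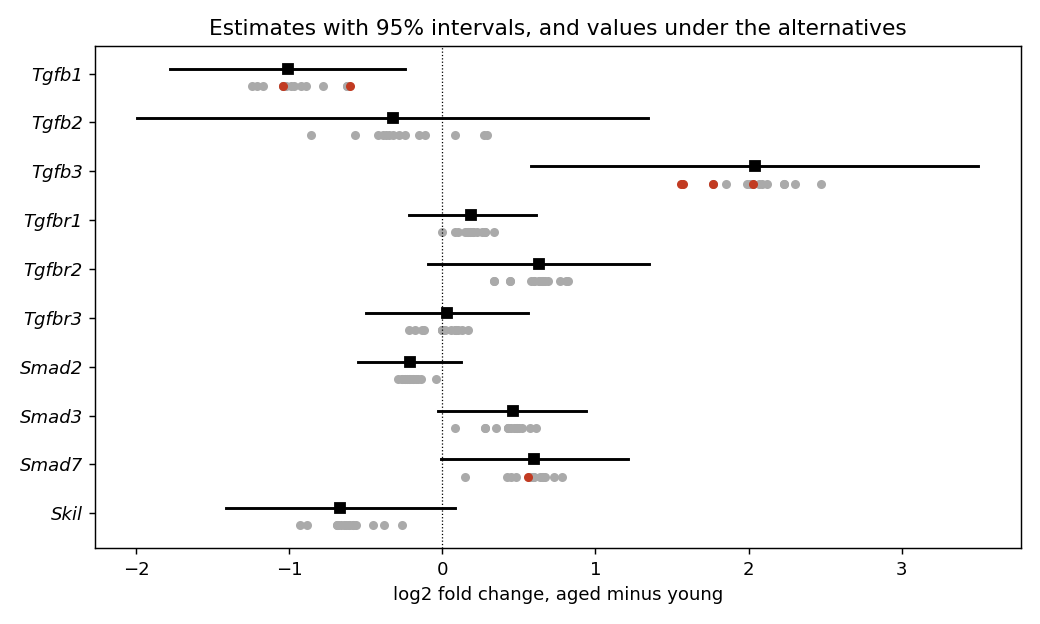
Log2 fold change, aged minus young, of each of the 10 genes. Squares and lines give the edgeR estimate from 6 libraries with its 95% interval, and the small points below give the estimate under each alternative, in red where the adjusted p was under 0.05. Red points appear for Tgfb1, Tgfb3 and Smad7.

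Ordered by mean level per length over all 6 libraries, Tgfbr3 (16 ± 2.96 CPM per kb) was followed by Skil (9.94 ± 4.04), Smad3 (8.02 ± 1.94), Tgfbr1 (6.69 ± 0.88), Smad2 (6.36 ± 0.592), Tgfbr2 (5.38 ± 2.01), Tgfb1 (3.94 ± 2.08), Smad7 (2.30 ± 0.665), Tgfb3 (1.94 ± 1.47) and Tgfb2 (0.107 ± 0.0638), with SD over libraries. No neighbours in this order kept it in all 6 libraries: the higher gene led in 4 or 5 of 6. Against the levels per length of all tested genes, Tgfbr3 lay at percentile 65.6, Smad3 at 50.7, Tgfb1 at 35.9, Tgfb3 at 24.1 and Tgfb2 at 0.910. The receptors, Smad2, Smad3 and Skil lay between percentiles 41.9 and 65.6, and the ligands and Smad7 at 35.9 or below. Young 4 held the lowest or the highest value of the 6 libraries for each of the 10 genes.

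The pattern of Tgfb3, the member with the smallest p, over the 6 libraries was most like that of Rftn1, Pced1b, Stat3, Frmd6 and Polm, with Pearson's r of log2 CPM from 0.997 to 0.999 among 10554 genes of at least 5 mean CPM. With 6 libraries that share an age contrast and young 4, such likeness was common: 585 genes had an r over 0.95. Stat3, for example, averaged 442 CPM in the aged and 193 CPM in the young libraries, with an adjusted p of 0.109 by edgeR.

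Other genes of the pathway were taken from 8 lists by role. Of 95 genes, 79 were tested, and by edgeR 2 rose, 1 fell and 76 did not pass, while DESeq2 called 14, limma-voom 5 and limma-voom with quality weights 24. By edgeR that is 3.80% called, against 5.76% of all genes. The shares were 17.7% against 16.3% of all genes by DESeq2, 6.33% against 6.09% by limma-voom and 30.4% against 30.5% with quality weights. The median log2 fold change by edgeR was 0.04 for these genes and for all genes alike. Tgm2, a TGF-beta target gene for tissue transglutaminase, which can itself help release latent ligand (chr2:158116405-158146392, minus strand), stood at 438, 229 and 292 CPM in aged 1, 2 and 3 and at 46.5, 84.2 and 83.9 CPM in young 4, 5 and 6. It rose 4.47-fold, or by 2.16 ± 0.33 SE on the log2 scale (edgeR, adjusted p = 0.0219). Leaving out 1 library at a time, the call held 3 of 6 times and was lost without aged 3, young 5 or young 6. Tgif1, which encodes a homeobox corepressor of SMAD2 and SMAD3 (chr17:70844205-70853532, minus strand), stood at 54.3, 55.1 and 55.5 CPM in the aged and 31.6, 32.1 and 36.2 CPM in the young libraries. It rose 1.65-fold (0.72 ± 0.15, adjusted p = 0.0387), with little spread in either group, and kept its call in 1 of 6 such fits, the one without young 4. Itgb6, the beta subunit of an integrin that activates latent TGF-beta (chr2:60598292-60722603, minus strand), stood at 2.35, 1.65 and 0.928 CPM in the aged and 7.08, 6.28 and 4.43 CPM in the young libraries. It fell 3.59-fold (-1.84 ± 0.39, adjusted p = 0.0439) and kept its call in 0 of 6 such fits. Losing a call was common among all genes in these fits. Of the 772 genes called, 256, 128 and 85 kept their call without aged 1, 2 and 3. Without young 4, 5 and 6 the numbers were 677, 73 and 88.

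**Figure D4:**
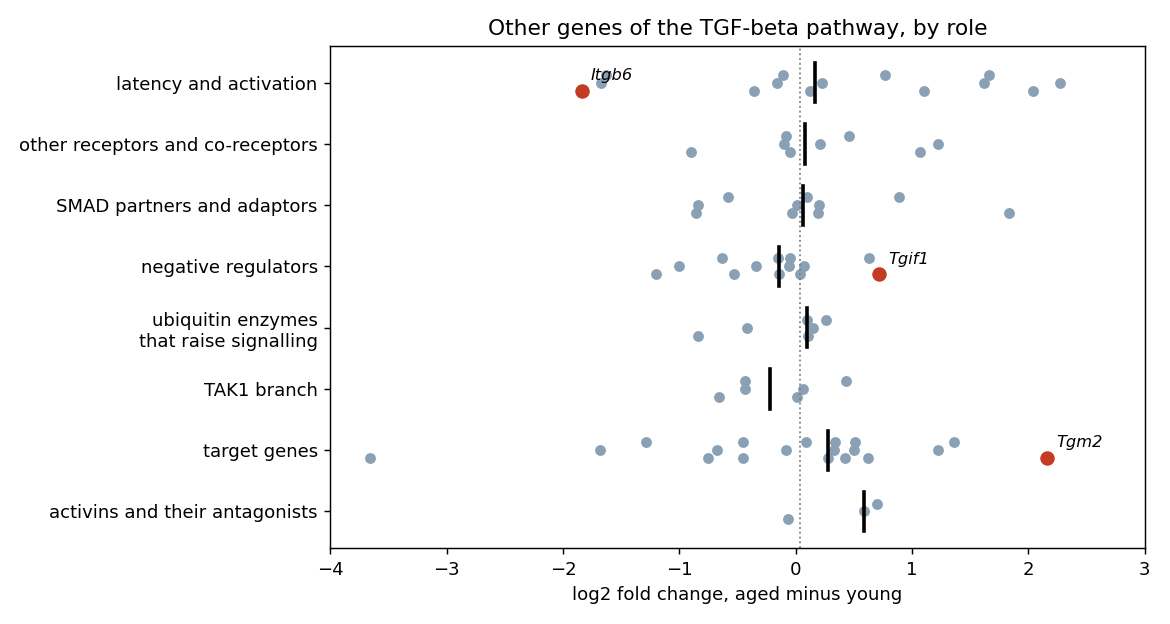
Log2 fold change, aged minus young, of 79 other pathway genes by role. Each point is 1 gene, red points passed the test (Itgb6, Tgif1 and Tgm2), the black bar is the median of the list and the dotted line the median of all tested genes, 0.04.

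Among the 14 tested genes of ligand latency and activation, 1 fell and none rose by edgeR, with 5 higher and 3 lower at an unadjusted p under 0.05. DESeq2 called 7 of them (Itgb6 and Mmp2 lower, and Fbn1, Ltbp3, Ltbp4, Mmp14 and Thbs1 higher), limma-voom 2 (Itgb6 and Mmp14) and quality weights 8. For this list and those below, the background was 25.1% of all genes at an unadjusted p under 0.05 by edgeR. DESeq2 called 16.3% of all genes, limma-voom 6.09% and quality weights 30.5%. The median was 0.17 and the median size 1.36, against 0.40 for all genes. Some of these genes were low, such as Lrrc32 (0.0795 to 1.58 CPM) and Itgb5 (0.144 to 1.51 CPM), while Thbs1 stood at 7.57 to 59.6 CPM. The part of low levels in the median size was not tested. Besides Itgb6, Nrros, which anchors latent TGF-beta on myeloid cells, stood at 340 to 409 CPM in the aged and 136 to 483 CPM in the young libraries, with its lowest value in young 4 (adjusted p = 0.868 by edgeR). Itgb1, the beta 1 integrin gene, stood at 218 to 242 CPM in the aged and 279 to 324 CPM in the young libraries (adjusted p = 0.213). The latent TGF-beta binding protein genes Ltbp3 and Ltbp4, named after their values were seen, were higher in every aged library without passing the test: Ltbp3 at 24.5 to 28.3 against 13 to 17.4 CPM (adjusted p = 0.0625) and Ltbp4 at 3.92 to 9.19 against 0.477 to 1.84 CPM (adjusted p = 0.051). DESeq2 and limma-voom with quality weights called both, and edgeR called Ltbp4 without young 4.

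Of the other receptors and co-receptors, 0 of 8 tested genes passed by edgeR, with 1 at an unadjusted p under 0.05, and 0 by DESeq2 and limma-voom, while quality weights gave 1 (Acvr2a). Eng, which encodes the co-receptor endoglin, stood at 318, 134 and 211 CPM in the aged and 40.1, 136 and 140 CPM in the young libraries (adjusted p = 0.239), and Fkbp1a, whose product holds the type I receptor inactive, at 238 to 337 and 299 to 340 CPM (adjusted p = 0.766). Of the SMAD partners and adaptors, 0 of 10 passed by edgeR, with 2 at an unadjusted p under 0.05, against 1 by DESeq2 (Zfyve9), 0 by limma-voom and 2 with quality weights (Runx3 and Zfyve9). Runx1, a partner transcription factor of stem cells, stood at 130 to 195 CPM in the aged and 119 to 200 CPM in the young libraries (adjusted p = 0.954), and Trim33, a SMAD-binding ubiquitin ligase gene, at 42.3 to 61.4 and 61.1 to 116 CPM (adjusted p = 0.257). Of the negative regulators, 1 of 13 rose (Tgif1) and none fell by edgeR, with 2 higher and 2 lower at an unadjusted p under 0.05. DESeq2 called 3 (Tgif1 and, lower in aged cells, Sik1 and Smad6), limma-voom 1 (Tgif1) and quality weights 5 (Nedd4l, Sik1, Smad6, Strap and Tgif1). Strap stood at 131 to 208 CPM in the aged and 178 to 237 CPM in the young libraries (adjusted p = 0.359), and the SMAD phosphatase gene Ppm1a at 21.8 to 38.3 and 31.8 to 66.5 CPM (adjusted p = 0.359).

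Enzymes of ubiquitin that raise signalling passed in 0 of 6 cases by edgeR, with 1 at an unadjusted p under 0.05, in 0 by DESeq2 or limma-voom and in 2 with quality weights (Uchl5 and Usp9x). The deubiquitinase genes Usp15 and Uchl5 had their highest values in young 4, at 624 CPM against 265 to 366 CPM elsewhere and at 419 CPM against 137 to 208 CPM. Uchl5 was also lower in every aged library, at 144, 175 and 137 CPM against 208 and 192 CPM in young 5 and 6 (adjusted p = 0.166 by edgeR). The groups overlapped for Usp15 (adjusted p = 0.391 by edgeR). In the branch through the kinase TAK1, 0 of 6 passed by edgeR, also with 1 at an unadjusted p under 0.05, and 0 by limma-voom, while DESeq2 and quality weights each called 1 (Tab2). Tab2, an adaptor of that kinase, stood at 35.7 to 44.9 CPM in the aged and 54.1 to 81.3 CPM in the young libraries (adjusted p = 0.111), and the ubiquitin ligase gene Traf6 at 52.2 to 60.2 and 39.5 to 66.4 CPM (adjusted p = 0.989).

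Of 19 tested target genes, 1 rose (Tgm2) and none fell by edgeR, with a median of 0.28 and with 3 higher and 1 lower at an unadjusted p under 0.05. DESeq2 and limma-voom each called 2, Tgm2 and Bhlhe40, and quality weights called these and Hpgd. Bhlhe40, a transcription factor gene, stood at 25.5 to 36.8 CPM in the aged and 7.55 to 16.5 CPM in the young libraries (adjusted p = 0.0517 by edgeR). Tsc22d1 stood at 702 to 1016 CPM in the aged and 326 to 795 CPM in the young libraries (adjusted p = 0.296) and Klf10, a zinc finger gene induced early by TGF-beta, at 264 to 294 and 113 to 287 CPM (adjusted p = 0.347), both lowest in young 4. Ctgf, a common readout of TGF-beta in other tissues, was not tested: its highest value was 0.310 CPM, in aged 2. Of 3 tested genes of activins and their antagonists, 0 passed by edgeR, with 1 at an unadjusted p under 0.05, and 0 by DESeq2 and limma-voom, while quality weights called 2 (Inha and Inhba). Fstl1 stood at 62.8 to 87.0 CPM in the aged and 79.2 to 85.4 CPM in the young libraries and the activin subunit gene Inhba at 2.83 to 6.87 and 2.64 to 3.98 CPM (adjusted p = 0.82 and 0.358).

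The promoters of 4 of these genes are shown because SMAD3 and SMAD4 bind the motif CAGAC and, as a palindrome, GTCTAGAC, and the genes are a ligand, the ligand-binding receptor and the 2 called genes with a listed promoter at the start site of the table. They are the 250 bases before the start site from RefSeq (GRCm38.p6, the mm10 assembly), 5′ to 3′, with CAGAC or its reverse complement GTCTG in capitals. Tgfb1 is chr7:25686752-25687001, plus strand; Tgfbr2 is chr9:116175364-116175613, minus strand. Tgif1 is chr17:70853533-70853782, minus strand, the outermost of 5 starts listed for it, and Itgb6 is chr2:60722604-60722853, minus strand, the outermost of 2.
Tgfb1: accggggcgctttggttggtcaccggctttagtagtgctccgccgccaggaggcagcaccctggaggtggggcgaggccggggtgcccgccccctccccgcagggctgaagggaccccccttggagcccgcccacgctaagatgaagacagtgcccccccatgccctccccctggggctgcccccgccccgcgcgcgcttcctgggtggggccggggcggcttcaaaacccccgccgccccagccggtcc
Tgfbr2: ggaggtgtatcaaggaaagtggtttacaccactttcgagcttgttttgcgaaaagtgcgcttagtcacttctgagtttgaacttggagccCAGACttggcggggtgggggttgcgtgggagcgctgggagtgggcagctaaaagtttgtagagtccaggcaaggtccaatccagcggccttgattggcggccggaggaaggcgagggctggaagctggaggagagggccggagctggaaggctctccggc
Tgif1: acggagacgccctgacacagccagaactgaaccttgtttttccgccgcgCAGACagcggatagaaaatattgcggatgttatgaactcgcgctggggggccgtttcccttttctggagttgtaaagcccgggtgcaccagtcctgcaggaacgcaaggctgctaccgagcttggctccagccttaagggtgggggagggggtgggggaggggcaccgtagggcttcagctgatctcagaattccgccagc
Itgb6: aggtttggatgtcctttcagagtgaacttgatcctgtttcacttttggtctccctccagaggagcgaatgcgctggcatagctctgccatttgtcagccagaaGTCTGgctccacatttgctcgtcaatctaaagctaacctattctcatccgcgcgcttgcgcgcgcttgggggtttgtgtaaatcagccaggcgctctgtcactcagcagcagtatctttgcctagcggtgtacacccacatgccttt
The Tgfb1 window, with a GC content of 75.2%, held neither motif. Tgfbr2 held 1 match that begins 160 bases before the start site, Tgif1 1 match at 201 bases and Itgb6 1 match at 147 bases. Of 32851 listed promoters of this length, 42.2% held CAGAC on either strand and 0.167% held GTCTAGAC. Promoters were listed for 5 of the 10 member genes (Tgfb1, Tgfb2, Tgfbr1, Tgfbr2 and Smad3), and none of these held GTCTAGAC. Of the windows not shown, that of the ligand gene Tgfb2 held 2 CAGAC matches, at 221 and 204 bases, and that of Smad3 held 0. Tgfbr1 held 0 at the start site of the table and 1, at 203 bases, at another listed start. Among the other Tgif1 starts, matches began at 191 and 59 bases before 1 start and at 17 bases before another. A match is a description of the letters and not evidence of binding.

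Markers of other cells were measured beside these genes, since platelets and macrophages are known sources of TGF-beta. Of 9 megakaryocyte and platelet markers, 8 were tested and 1 fell (Ppbp), and their summed level ran from 413 to 1304 CPM in the aged and from 773 to 1259 CPM in the young libraries. Of the 8, 2 estimates lay above 0 and 6 below, and the groups were apart for 3: Pf4 (22.9 to 322 against 438 to 530 CPM) and Ppbp (5.47 to 6.30 against 20.6 to 38.7 CPM) were lower and Vwf (117 to 208 against 51 to 81.7 CPM) higher in every aged library. Of 9 macrophage markers none passed by edgeR (3 lower at an unadjusted p under 0.05), with a sum of 316 to 354 CPM in the aged and 291 to 389 CPM in the young libraries, most of it Lyz2. Of the 9, 1 estimate lay above 0 and 8 below. The groups were apart for 4, against 36.6% of all tested genes: C1qb, C1qc, Mrc1 and Vcam1 were lower in every aged library. Csf1r, a defining macrophage gene, was at 0.232 to 0.815 and 0.698 to 1.03 CPM. Of 8 endothelial markers 7 were tested and 1 rose (Cldn5), with sums of 405 to 493 and 256 to 352 CPM, which did not overlap. Of the 7, 5 estimates lay above 0 and 2 below. The groups were apart for 4: Pecam1, Kdr, Cldn5 and Esam were higher in every aged library. Cdh5, the defining marker, was too low to be tested, at 0.0464 to 0.258 CPM in the aged and 0.159 to 1.27 CPM in the young libraries. Of 8 stromal markers 5 were tested and 1 fell (Cxcl12), with sums of 15.6 to 29.9 and 7.79 to 81.4 CPM, and Col1a1, which is also on the target gene list, reached 43.1 CPM in young 6 and at most 2.53 CPM elsewhere. Markers of T and NK cells summed to at most 0.980 CPM in the aged and 3.86 CPM in the young libraries, with Cd8a at 0 throughout, and Cd4 fell. Neutrophil markers summed to 4.36 to 13.4 and 7.39 to 11.6 CPM. B-lineage markers summed to 59.4 to 87 and 73.5 to 133 CPM, nearly all Cd79b, and erythroid markers to 68.3 to 79.8 and 41.1 to 121 CPM, with none passing by edgeR in these 3 lists (at an unadjusted p under 0.05, 0 neutrophil, 1 B-lineage and 3 erythroid genes). The part of such cells, or of what sets young 4 or aged 2 apart, in the values of the 10 genes was not tested.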

How the data were processed

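Sequencing used the SMART-Seq v4 kit on total RNA and single reads of 51 cycles, per the labels' protocols. The submitters' processing notes name Trimmomatic, STAR 2.6.0, HTSeq 0.11.1, edgeR and build mm10, with no roles. The annotation is not given in the sources used here, nor the counting mode. Whole-number counts per gene, with gene lengths in kb, are as the authors deposited them.

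Counts were fitted with edgeR 4.0.16 (R 4.3.3): filterByExpr, TMM scaling, glmQLFit and glmQLFTest with age as the only term, p-values adjusted by Benjamini-Hochberg across 13413 genes, called below 0.05. SE was taken from the F statistic, and 95% intervals from SE and the total degrees of freedom. The fit was tested on simulated data. Levels are TMM-scaled CPM without pseudocount, divided by length where genes are compared.

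Members and gene lists were chosen with earlier results of these data known. Named were all members, called genes and the 2 uncalled genes of each pathway list with the highest mean CPM, and the 5 genes most like the member with the smallest p (log2 CPM with a prior count of 2); markers are given by list, naming called genes and those at 0. Other genes named (Kit, Pf4, Ttll5, Csf1r, Lyz2, Col1a1, Cd79b, Cdh5, Ltbp3, Ltbp4, Acvr2a, Zfyve9, Runx3, Usp9x, Inha, Ctgf, Bhlhe40, Hpgd, Fbn1, Mmp2, Mmp14, Thbs1, Sik1, Smad6, Nedd4l, Vwf, C1qb, C1qc, Mrc1, Vcam1, Pecam1, Kdr, Esam, Itgb5, Lrrc32) were chosen after their values were seen.

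Alternatives were other scalings, filters and tools (DESeq2 1.42.0 and limma 3.58.1 among them), libraries left out, and each library's GC and length trend removed (splines with 4 degrees of freedom, GENCODE M21).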

Additional observations from a re-analysis of the deposited data

How the results depend on the processing

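Over 16 alternatives, 141 of 158 recomputed estimates of the 10 genes kept their direction and their side of the threshold, 7 passed it (Tgfb3 in 4, Tgfb1 in 2 and Smad7 in 1) and 10 changed sign without passing. The sign changes were those of Tgfb2 (0.08 by limma-voom, 0.29 with quality weights; -0.86 to 0.27 with single libraries left out) and Tgfbr3 (-0.002 with median-ratio scaling, -0.0021 by DESeq2, -0.22 by limma-voom with quality weights, -0.12 with the GC and length trend removed, -0.18 to 0.13 with single libraries left out, among them -0.13 without young 4, -0.0031 without aged 2 and young 4). The number of members called was 2 by DESeq2, 3 by limma-voom with quality weights, 1 without aged 2 and young 4, and 0 to 1 with single libraries left out. Of pathway genes, where 3 were called, it was 5 with upper-quartile scaling, 1 without scaling, 5 without a filter, 14 by DESeq2, 5 by limma-voom, 24 with quality weights, 10 with the GC and length trend removed, 5 without aged 2 and young 4, and 0 to 7 with single libraries left out (0 without aged 3, young 5 or young 6, 1 without aged 1 or aged 2 and 7 without young 4). Of all genes, where 772 were called, it was 443 at 5 CPM or more in 3 libraries, 2181 by DESeq2, 4094 with quality weights, 1365 with the GC and length trend removed, and 74 to 1029 with single libraries left out (282, 129 and 85 without aged 1, 2 and 3, and 1029, 74 and 88 without young 4, 5 and 6). The share of higher calls among these was 74% at first, 57.5% by DESeq2, 56.8% with quality weights, 50.3% with the GC and length trend removed, 80.2% without scaling, 64.7% without a filter, 81.9% at 5 CPM or more, and 66% (without young 4) to 96.5% (without aged 3) with single libraries left out. The median log2 fold change of all genes was 0.04, 0.20 without scaling, 0.27 without a filter and -0.08 with the trend removed. The cause of these differences was not tested. No paired analysis was possible because the labels number aged samples 1 to 3 and young samples 4 to 6, so no number is shared. Counts of 3 to 13 limit Tgfb2, which was not tested at 5 CPM or more or without aged 2 and young 4.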
